A study of Mus musculus with 16 samples.

Results

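The 10 genes described here, S100a8, S100a9, Retnlg, Mpo, Elane, Prtn3, Ctsg, Ms4a3, Vpreb3 and Fcnb, are genes of neutrophils and of the bone marrow that were read on arrays of mouse quadriceps muscle. They were taken by symbol, through the RefSeq accession of each probe, and all 10 were found, with 11 probes of the 41174 on the array that were not controls. Of the probes, 24844 had a gene symbol, for 17178 genes. The genes were picked with their levels on these arrays known, because a few arrays held far more of them than the rest, so that their levels are a description wherever that choice enters.

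Muscle was taken from animals with a Klf15 knockout (KO) and from wild-type (WT) animals, 8 h after 1 intraperitoneal injection of dexamethasone (dex) at 2 mg/kg or of vehicle. The 4 groups, KO dexamethasone, KO vehicle, WT dexamethasone and WT vehicle, had 4 arrays each, labelled as replicates; nothing in the labels says that each came from its own animal, and p-values measure the spread between these samples. Klf15 encodes a zinc-finger transcription factor and dexamethasone is a synthetic agonist of the glucocorticoid receptor. The sources used here give no strain, age or sex and no construction of the Klf15 allele. Amplified cDNA was hybridised to 16 single-colour arrays on 8 slides, on which 66.3% to 80.6% of spots were well above background. The scanner software marked 3 arrays for evaluation, WT dexamethasone replicate 1 and KO dexamethasone replicates 2 and 4, and the others as in range. All 3 are dexamethasone arrays and were kept in every main fit below. For both Klf15 probes every KO array lay below every WT array, and all 10 quadriceps markers examined (Acta1, Ckm, Mb, Myh4, Myh1, Tnnt3, Tnni2, Actn3, Pvalb and Myl1) were well above background on all 16 arrays.

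Neutrophils are made in the bone marrow and carry their weapons in granules that are filled in order. The primary granules, with myeloperoxidase and the serine proteases neutrophil elastase, proteinase 3 and cathepsin G, are filled in promyelocytes, whose transcripts for these proteins are lost before the cell leaves the marrow. S100A8 and S100A9, which together form calprotectin, are calcium-binding proteins abundant in the cytoplasm of mature neutrophils and their transcripts stay high there. Circulating neutrophils therefore hold little RNA of the primary granule enzymes, and glucocorticoids are known to raise the number of neutrophils in blood.

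The promoters of the calprotectin pair and of 3 primary granule enzymes are shown because these genes were raised on the same arrays and 4 of them lie next to a partner in the genome. In the RefSeq gene order S100a8 and S100a9 are next to each other, as are Prtn3 and Elane. The sequences are from RefSeq (GRCm38.p6), give the 250 bases before the start site, 5′ to 3′ on the gene's own strand, and carry in capitals the matches to GAGGAA, the core of PU.1 sites, and to TTGCNNAA, a C/EBP site with 2 free bases, each searched on both strands.
S100a8 promoter, chr3:90668821-90669070, plus strand: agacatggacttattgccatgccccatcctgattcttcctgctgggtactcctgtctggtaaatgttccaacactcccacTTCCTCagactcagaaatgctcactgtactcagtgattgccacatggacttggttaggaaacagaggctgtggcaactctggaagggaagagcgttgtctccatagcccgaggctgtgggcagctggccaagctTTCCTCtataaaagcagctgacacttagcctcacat
S100a9 promoter, chr3:90695722-90695971, minus strand: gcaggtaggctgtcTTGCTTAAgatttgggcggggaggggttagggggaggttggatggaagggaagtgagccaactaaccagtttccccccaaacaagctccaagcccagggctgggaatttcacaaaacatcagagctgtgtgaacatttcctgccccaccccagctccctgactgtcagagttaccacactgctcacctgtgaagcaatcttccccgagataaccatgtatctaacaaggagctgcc
Mpo promoter, chr11:87793534-87793783, plus strand: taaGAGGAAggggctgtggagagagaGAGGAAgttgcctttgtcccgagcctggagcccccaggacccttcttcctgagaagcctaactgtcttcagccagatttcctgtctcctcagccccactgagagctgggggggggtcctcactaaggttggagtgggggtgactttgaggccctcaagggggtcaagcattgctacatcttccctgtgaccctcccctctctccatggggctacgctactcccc
Elane promoter, chr10:79886062-79886311, plus strand: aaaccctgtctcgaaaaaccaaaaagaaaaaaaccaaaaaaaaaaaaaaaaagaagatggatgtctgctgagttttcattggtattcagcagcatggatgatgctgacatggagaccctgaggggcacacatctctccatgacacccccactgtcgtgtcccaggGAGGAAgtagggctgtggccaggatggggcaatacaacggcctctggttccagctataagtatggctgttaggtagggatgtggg
Prtn3 promoter, chr10:79879417-79879666, plus strand: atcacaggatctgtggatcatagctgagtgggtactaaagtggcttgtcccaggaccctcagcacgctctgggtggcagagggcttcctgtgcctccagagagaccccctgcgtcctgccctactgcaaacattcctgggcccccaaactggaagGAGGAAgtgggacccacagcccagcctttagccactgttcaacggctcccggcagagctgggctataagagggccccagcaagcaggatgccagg
PU.1 and C/EBP proteins are transcription factors of the granulocyte lineage. GAGGAA or its reverse complement was present in 5 of the 10 promoters (S100a8, Mpo, Elane, Prtn3 and Ctsg), against 23.3% of all 32851 mouse promoters of that length in the table. TTGCNNAA was present in 3 of the 10 (S100a9, Retnlg and Fcnb), against 9.56% of all. ACANNNTGT, the core of glucocorticoid receptor sites, was present in 0 of the 10, against 5.84% of all, in these 250 bases.

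Levels are given as log2 of the spot's intensity over the 75th percentile of its array, so that 0 marks a spot as bright as that percentile. No spot of the 10 genes was saturated. A probe that the scanner software did not mark as well above background has an uncertain level, and Elane was so marked on 4 of 16 arrays, Retnlg on 8, Fcnb on 9, Prtn3 on 10, S100a8 and Ms4a3 on 11 and the other 4 genes on 16.

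KO dexamethasone replicate 1 and WT dexamethasone replicate 3 stood apart from the other 14 arrays. All 10 genes were higher on both of them than on every other array, a pattern that 2.21% of all features had, and 9 of the 10 were at least 1 log2 unit above every other array on both, against 0.514% of all features. WT dexamethasone replicate 3 was higher than KO dexamethasone replicate 1 for all 10 genes, by 0.20 to 1.51 log2 units. This order depends on the scaling, as the 75th percentile was at an intensity of 556 on the former and 947 on the latter. Before scaling, Ctsg (1769 against 1822), Prtn3 (215 against 232) and Vpreb3 (410 against 613) were lower on WT dexamethasone replicate 3, and the remaining genes higher. KO dexamethasone replicate 1 was on slide 4 with WT vehicle replicate 2 and KO vehicle replicate 4, and WT dexamethasone replicate 3 was the only array of its slide and of the later of 2 scan dates. Changes under dexamethasone are given below with and without these arrays.

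**Figure D1:**
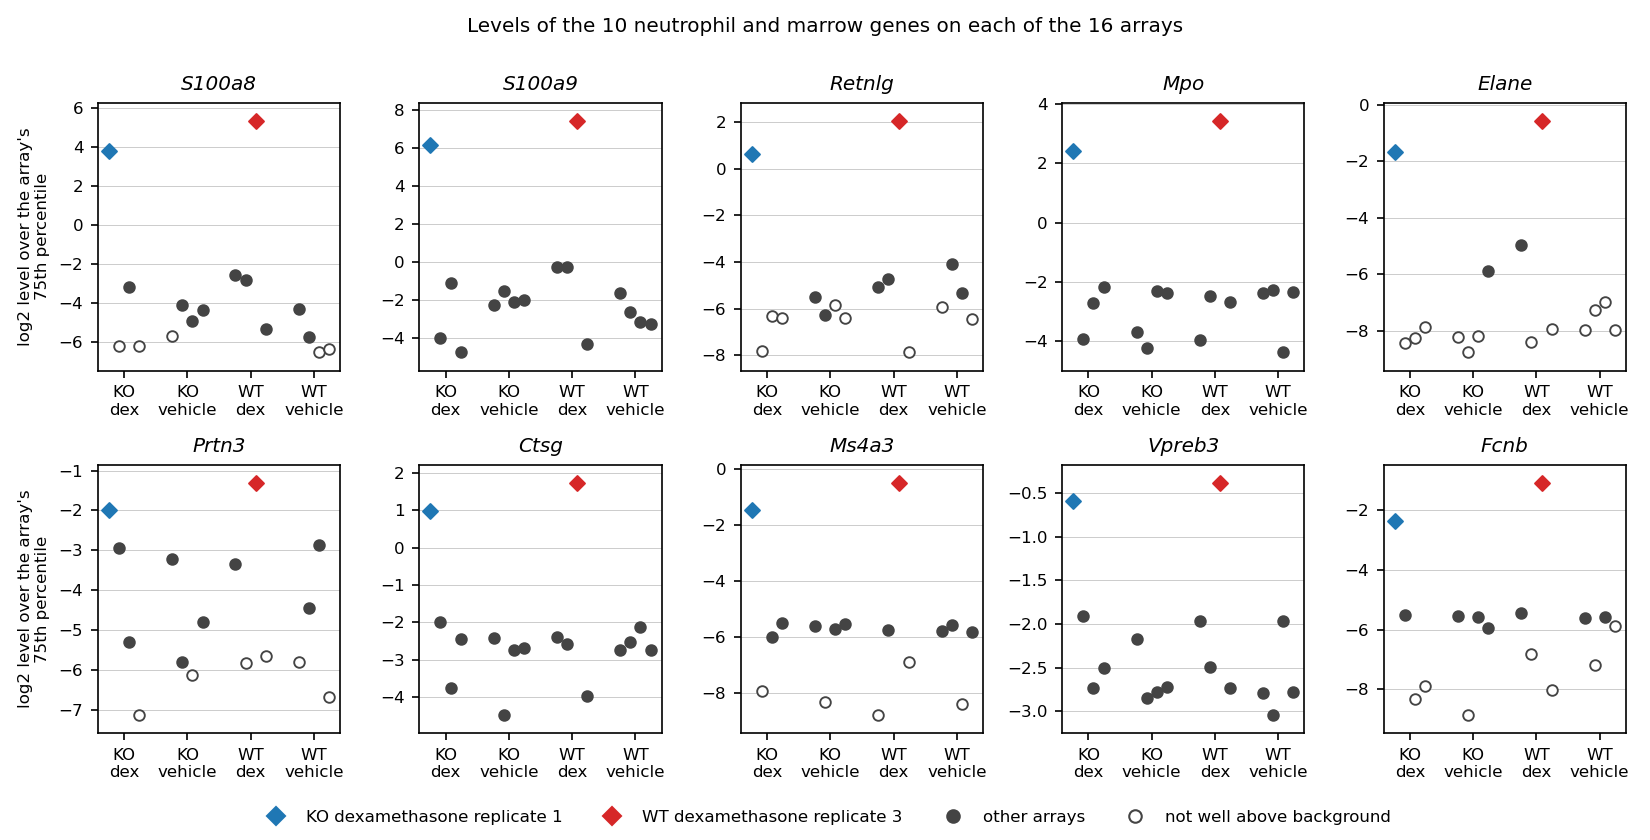
Log2 level (y axis, over the array's 75th percentile) of each of the 10 genes on the 16 arrays, by group on the x axis, with 1 point per array; dex is dexamethasone. The diamonds are KO dexamethasone replicate 1 and WT dexamethasone replicate 3, which lie above the other 14 arrays in all 10 panels, and open points were not well above background.

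S100a9 encodes a subunit of calprotectin. It stood at 6.15, -3.96, -1.12 and -4.74 on KO dexamethasone arrays 1 to 4, against -2.27, -1.50, -2.10 and -1.98 on KO vehicle arrays. On WT dexamethasone arrays it stood at -0.23, -0.24, 7.41 and -4.29, against -1.60, -2.60, -3.12 and -3.25 on WT vehicle arrays. Within each dexamethasone group 1 array was thus very high, and the lowest arrays of both groups lay below all 8 vehicle arrays, so that the dexamethasone and vehicle groups overlapped in both genotypes. The raised arrays exceeded the median of the other 3 arrays of their group 1105-fold in KO and 200.5-fold in WT. Replicates 1 and 2 of WT dexamethasone were the highest of the other 14 arrays.

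S100a8 encodes the partner of S100A9. Its levels were 3.82, -6.22, -3.15 and -6.19 on KO dexamethasone arrays, against -5.68, -4.09, -4.92 and -4.37 on KO vehicle arrays. WT dexamethasone arrays were at -2.57, -2.80, 5.33 and -5.34, against -4.29, -5.72, -6.53 and -6.37 on WT vehicle arrays. Here 3 of 4 WT dexamethasone arrays lay above all 4 WT vehicle arrays, while 2 of 4 KO dexamethasone arrays, neither well above background, lay below all 4 KO vehicle arrays. The excess over the median of the other 3 arrays of the group was at least 1035-fold on KO dexamethasone replicate 1 and 282-fold on WT dexamethasone replicate 3. It is a bound where the middle one of the other 3 spots was not well above background; such a spot is set to its own level or the lowest level well above background on its array, whichever is higher.

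Retnlg, which encodes resistin-like gamma, a secreted protein of mouse neutrophils and marrow, was at 0.64 on KO dexamethasone replicate 1, with the other 3 KO dexamethasone arrays between -7.82 and -6.33 and none of them well above background. KO vehicle arrays lay between -6.38 and -5.48. WT dexamethasone arrays were at -5.06, -4.73, 2.03 and -7.87, against -5.91, -4.07, -5.31 and -6.44 on WT vehicle arrays. The 2 raised arrays were at least 130.4-fold (KO) and 137-fold (WT) above the median of the other 3 arrays, and the remaining dexamethasone arrays overlapped the vehicle arrays or lay below them.

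The primary granule enzymes were raised on the same arrays. Mpo, myeloperoxidase, which makes hypochlorous acid, was at 2.44, -3.93, -2.71 and -2.16 on KO dexamethasone arrays, against -3.68, -4.23, -2.32 and -2.36 on KO vehicle arrays. It was at -3.95, -2.47, 3.43 and -2.68 on WT dexamethasone arrays, against -2.39, -2.26, -4.38 and -2.34 on WT vehicle arrays. Apart from the 2 raised arrays, all 14 values lay between -4.38 and -2.16, and dexamethasone and vehicle arrays overlapped. The excess was 35.6-fold on KO dexamethasone replicate 1 and 68.6-fold on WT dexamethasone replicate 3.

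Elane, neutrophil elastase, was near the detection limit elsewhere. It was well above background on KO dexamethasone replicate 1 (-1.66), WT dexamethasone replicate 3 (-0.58), WT dexamethasone replicate 1 (-4.96) and KO vehicle replicate 4 (-5.87), and the other 12 arrays lay between -8.76 and -6.97. No WT vehicle array was above background, so that only a bound can be given: the mean over WT dexamethasone arrays was at least 3.12-fold higher than in WT vehicle with all arrays, with 2 of 4 WT dexamethasone arrays above background, and at least 1.01-fold without replicate 3. These bounds are rough, because WT dexamethasone spots not well above background entered at their measured level.

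Prtn3, proteinase 3, is encoded next to Elane. It was at -1.99 on KO dexamethasone replicate 1 and at -1.32 on WT dexamethasone replicate 3, and the next array, WT vehicle replicate 3, was at -2.88. Ctsg, cathepsin G, was at 0.98 and 1.72 on the 2 arrays, against a range of -4.47 to -1.996 over the other 14. Both proteases thus had their 2 highest values on the same arrays, with an excess over the other arrays of the group of 9.89-fold and 10.8-fold on KO dexamethasone replicate 1, and of at least 20.1-fold and of 19.7-fold on WT dexamethasone replicate 3, for Prtn3 and Ctsg in that order.

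The remaining genes are known from marrow cells rather than for a granule enzyme: Ms4a3, a membrane protein of granulocyte and monocyte progenitors, Fcnb, the lectin ficolin-B of myeloid cells, and Vpreb3, a protein of the pre-B cell. Ms4a3 was at -1.48 on KO dexamethasone replicate 1 and -0.53 on WT dexamethasone replicate 3, against -8.75 to -5.51 on the other 14 arrays, an excess of 22.6-fold and of at least 43.2-fold. Fcnb was at -2.36 and -1.11 on the same arrays, against -8.84 to -5.44, at least 24.7-fold and 28.9-fold. Vpreb3 was at -0.59 and -0.39, against -3.04 to -1.91, an excess of 3.79-fold and 4.28-fold. Its second probe read -1.48 on KO dexamethasone replicate 1 and -1.08 on WT dexamethasone replicate 3, with KO dexamethasone replicate 2 at -1.39 and WT vehicle replicate 3 at -1.44 between them. The 2 probes of Vpreb3 therefore disagree on whether KO dexamethasone replicate 1 stood above the others.

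With all 16 arrays the fitted log2 changes under dexamethasone were positive for 10 of 10 genes in each genotype, which describes the arrays that chose the genes and is not a test. In KO muscle they ran from 0.46 (SE 1.48, Fcnb) to 1.83 (SE 2.25, S100a8) with a median of 1.06, against 0.07 over all features. In WT muscle they ran from 0.71 (SE 1.48, Fcnb) to 4.38 (SE 2.25, S100a8) with a median of 1.17, against -0.08 over all features. The medians rest on the raised arrays: leaving out 1 array at a time moved them between -0.17 and 1.90 in KO and between -0.19 and 1.91 in WT, lowest without the raised array of that genotype and highest without KO dexamethasone replicate 2 and WT dexamethasone replicate 1, and normexp gave 0.52 in WT. For completeness, limma with Benjamini-Hochberg adjustment over 25777 features called 0 of 10 genes in KO, where 10% of features were called, and 0 of 10 in WT, where 10.8% were. It called 0 of 10 in the average of both genotypes, where 17.2% were called, 0 of 10 in KO against WT under dexamethasone, where 1.98% were, and 0 of 10 in the interaction, where 0.00% were. These counts use the values by which the genes were picked, so nothing is read from them.

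Without KO dexamethasone replicate 1 and WT dexamethasone replicate 3 the shift under dexamethasone was not common to the genes with the scaling used here. Of 9 genes that passed the filter on dim probes, Elane being the one that did not, 3 had a positive change in KO (median -0.17, range -1.31 to 0.34) and 4 in WT (median -0.19, range -0.74 to 2.16). The split of signs depends on the scaling: normexp gave 8 of 9 positive in KO (median 0.54, against 0.26 over all features) and 2 of 9 in WT, and the deposited values 6 of 9 and 5 of 9. Limma called 0 of 9 in KO, where 8.52% of features were called, 0 of 9 in WT, where 9.15% were, and 0 of 9 for the average of the genotypes, where 16% were. At an unadjusted p under 0.05 the counts were 0, 1 and 0. The 1 gene was S100a8 in WT, with a log2 change of 2.16 (SE 0.89, limma adjusted p = 0.175, n = 3 dexamethasone and 4 vehicle arrays). S100a9 had a log2 change of 1.06 (SE 1.02, limma adjusted p = 0.605) in WT and -1.31 (SE 1.02, limma adjusted p = 0.573) in KO. Retnlg in KO was not above background on any of the 3 dexamethasone arrays left, and a rough bound puts KO vehicle 1.33-fold higher (limma adjusted p = 0.637). Only 2 of 4 KO vehicle arrays were well above background and the others entered at their measured level, so no direction is read from it.

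**Figure D2:**
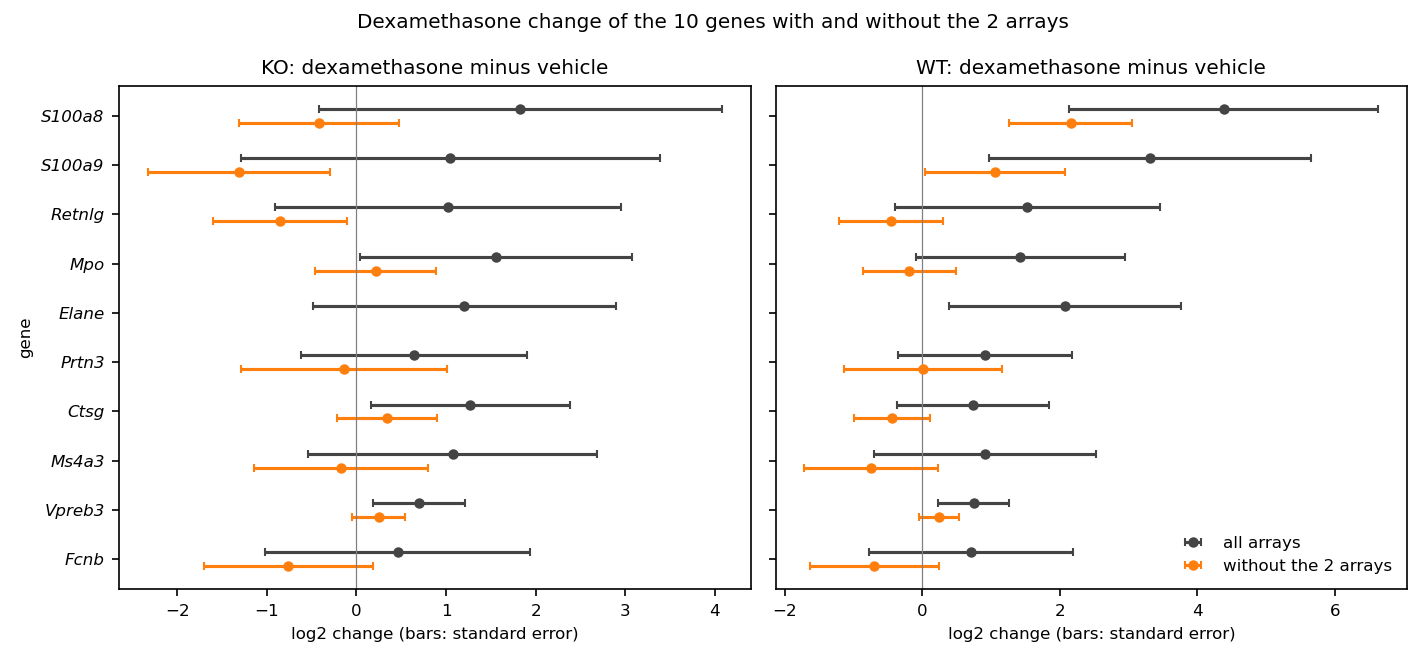
Log2 change under dexamethasone (x axis, dexamethasone minus vehicle) with its standard error for each gene (y axis), in KO on the left and WT on the right, fitted to all 16 arrays and to the 14 without the 2 raised ones. The fitted changes are above 0 for 10 of 10 genes with all arrays, and above 0 for 3 of 9 in KO and 4 of 9 in WT without the 2 arrays; Elane has no second value.

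Dexamethasone was also compared with vehicle of the same genotype on 1 slide. On slide 4 KO dexamethasone replicate 1 exceeded KO vehicle replicate 4 for all 10 genes, from 2.13 (Vpreb3) to 8.19 (S100a8) log2 units. On slide 6 KO dexamethasone replicate 4 differed from KO vehicle replicate 3 by -1.28 for S100a8 and -2.64 for S100a9. On slide 7 KO dexamethasone replicate 2 differed from KO vehicle replicate 1 by -0.54 and -1.69. The remaining genes differed in sign on both slides, from -2.31 (Fcnb) to 0.30 (Elane) on slide 6 and from -2.34 (Retnlg) to 0.43 (Ctsg) on slide 7. On slide 5 WT dexamethasone replicate 2 exceeded WT vehicle replicate 4 by 3.57 for S100a8, 3.02 for S100a9 and 1.71 for Retnlg. Mpo differed there by -0.13, Ms4a3 by 0.06 and Fcnb by -0.93. S100a8 was not well above background on KO dexamethasone replicates 2 and 4, KO vehicle replicate 1 or WT vehicle replicate 4. Retnlg was not on WT vehicle replicate 4, KO vehicle replicate 4 or KO dexamethasone replicate 2. Fcnb was not on KO dexamethasone replicate 4 or either array of this pair on slide 5, and Elane on neither of the pair on slide 6. The sizes of these differences are therefore uncertain. For S100a9, well above background on all 16 arrays, the slide comparisons differed in sign. Slides 1, 2, 3 and 8 hold no pair of this kind.

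KO against WT under vehicle does not involve the raised arrays except through the estimate of spread and, for Elane, through the filter on dim probes. Elane was well above background on 1 of 4 KO vehicle and 0 of 4 WT vehicle arrays. It could thus not be compared, though it enters the counts of 10. Retnlg was well above background on 2 of 4 arrays in each group, and S100a8 on 3 of 4 in KO and 2 of 4 in WT, so their sizes are uncertain. The log2 changes ran from -0.56 (Retnlg) to 0.96 (S100a8), with a median of -0.12 and 4 of 10 positive. This direction was not stable: without KO vehicle replicate 2 the median was 0.18 with 8 of 10 positive, and with normexp it was -0.65 with 1 of 10 positive. Limma called 0 of 10, with 0 at an unadjusted p under 0.05, where 0.260% of all features were called, and the adjusted p ran from 0.964 to 0.999. The SE ran from 0.51 to 2.34 with all arrays and from 0.27 to 1.06 with the raised arrays left out, when 0 of 9 were called. Differences of the size of these SE could not be detected at 4 arrays per group.

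Markers of other cell types of the marrow were raised on the same 2 arrays. Of 12 erythroid precursor genes measured, 11 were higher on both than on all other arrays, and the list's summed level (over the 75th percentile, linear) was 6.84 on KO dexamethasone replicate 1 and 6.83 on WT dexamethasone replicate 3, against 0.915 to 1.87 on the other KO dexamethasone arrays, 0.703 to 1.71 in KO vehicle, 0.895 to 1.39 on the other WT dexamethasone arrays and 1.63 to 1.94 in WT vehicle. Rhd, a subunit of the erythrocyte Rh complex, was at 0.08 and -0.05 on the 2 arrays and not well above background on any of the other 14, whose levels were -7.62 or lower. Kel, the Kell blood group protein, was at -0.29 and -0.39, against -5.65 or lower. All 6 red cell genes measured were higher on both arrays than elsewhere, among them Slc4a1, the band 3 anion exchanger, with an excess of 22.4-fold and 16.9-fold over the median of the other arrays of the group.

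Bone genes moved with them. Of 11 genes of bone and marrow stroma 6 were higher on both arrays than on all others: Bglap (osteocalcin), Ibsp (bone sialoprotein), Dmp1, Mmp13, Acp5 and Ctsk. Bglap was at 2.42 on KO dexamethasone replicate 1 and 3.30 on WT dexamethasone replicate 3, against -2.47 or lower elsewhere. Ibsp was at -0.86 and -0.44, against -5.85 or lower. The summed level of this list was 20.3 on KO dexamethasone replicate 1 and 25.9 on WT dexamethasone replicate 3, against 9.69 to 11.1 on the other KO dexamethasone arrays, 11.7 to 15.6 in KO vehicle, 8.41 to 10.3 on the other WT dexamethasone arrays and 9.20 to 13.5 in WT vehicle. Cxcl12, Lepr, Alpl, Sp7 and Phex, also on the list, did not exceed all other arrays on both.

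Genes of dividing cells, 8 of 12, were also higher on both arrays, with Mki67, the Ki-67 antigen, at 1.26 and 1.57 against -2.16 or lower. Top2a and Aurkb, a topoisomerase and a mitotic kinase, were not well above background on any other array. Of 9 megakaryocyte and platelet genes 4 were higher on both, of 14 genes of B-cell precursors 5, of 9 of mature B and plasma cells 4, of 11 of eosinophils, basophils and mast cells 4, of 12 of T and NK cells 1, and of 8 of monocytes 2, of which 1 is Fcnb itself. Of 12 genes of granulocyte precursors 6 were higher on both (Gfi1, Prss57, Hdc, Nkg7, Itgb2l and Igsf6), but the list's summed level was 21.1 on KO dexamethasone replicate 1 and 14.7 on WT dexamethasone replicate 3, against 15.3 to 20.9 on the other KO dexamethasone arrays, 18.92 to 24.9 in KO vehicle, 13.1 to 17.1 on the other WT dexamethasone arrays and 20.5 to 25.5 in WT vehicle. The sum of mature B and plasma cell genes, 6.46 and 7.37, lay within the other KO dexamethasone arrays (6.33 to 8.74) and the other WT dexamethasone arrays (5.03 to 9.12) and below every vehicle array (10.3 to 18.3 in KO and 12.2 to 18.8 in WT). That of megakaryocyte genes, 4.47 and 8.86, was above the other KO dexamethasone arrays (2.07 to 3.94) and the other WT dexamethasone arrays (2.19 to 2.99) but within the vehicle ranges (4.45 to 6.73 in KO and 5.96 to 9.25 in WT). A sum follows its brightest genes, so a list can hold genes raised on both arrays while its sum is not. With normexp fewer genes of these lists were higher on both arrays, as given below. Cd79b, part of the B-cell receptor, had an excess of 7.93-fold and 11.8-fold, and Mcpt8, a basophil protease, was not well above background on any other array. On the same lists Blnk (1.29-fold and 1.05-fold), Ebf1 (0.92 and 0.82) and the mast cell genes Cpa3 (0.52 and 0.99) and Tpsb2 (0.43 and 0.90) were not so raised. The sum of eosinophil, basophil and mast cell genes was 3.27 and 4.85. Other KO dexamethasone arrays were at 2.74 to 4.31, other WT dexamethasone arrays at 2.22 to 3.74, KO vehicle at 3.49 to 4.41 and WT vehicle at 3.51 to 5.73. The part that cells of marrow or bone play in the levels of the 10 genes was not tested. In whole tissue more cells of a type and more RNA per cell cannot be told apart.

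**Figure D3:**
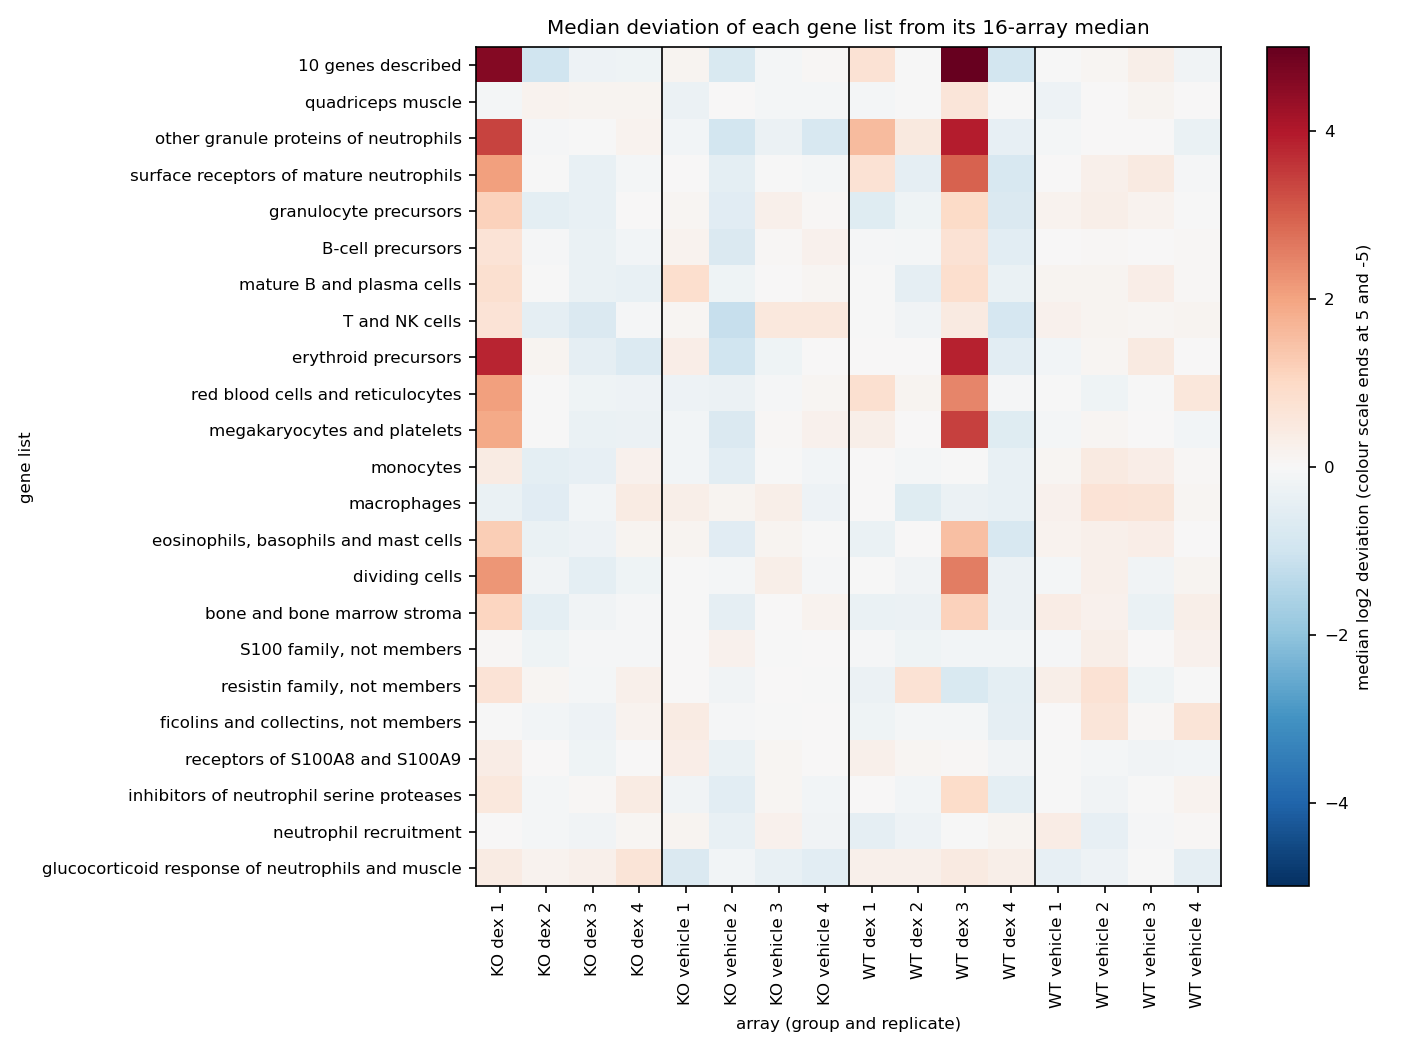
Median log2 deviation of each gene list (y axis) from its 16-array median on each array (x axis, dex is dexamethasone), in colour from -5 to 5. KO dexamethasone replicate 1 and WT dexamethasone replicate 3 are deep red for the 10 genes described (4.58 and 5.55), other granule proteins (3.37 and 3.94) and erythroid precursors (3.81 and 3.87), and pale for macrophages (-0.35 and -0.29).

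Genes of resident cells did not share the pattern. Of 9 macrophage genes and of 10 quadriceps genes 0 were higher on both arrays than on all others. The macrophage list had a summed level of 8.37 on KO dexamethasone replicate 1 and 7.53 on WT dexamethasone replicate 3, within the ranges of the other KO dexamethasone arrays (7.24 to 14.5) and the other WT dexamethasone arrays (7.06 to 10.01), with KO vehicle at 8.91 to 12.5 and WT vehicle at 10.72 to 16.2. Adgre1, which encodes the macrophage antigen F4/80, was at -1.55 and -1.83 on the 2 arrays. The quadriceps list lay at a median deviation of -0.09 on KO dexamethasone replicate 1 and 0.62 on WT dexamethasone replicate 3. The excess of this list on WT dexamethasone replicate 3 over the median of the other WT dexamethasone arrays was 0.66 with the scaling used here and -0.03 after quantile normalization, so that its direction depends on the scaling.

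**Figure D4:**
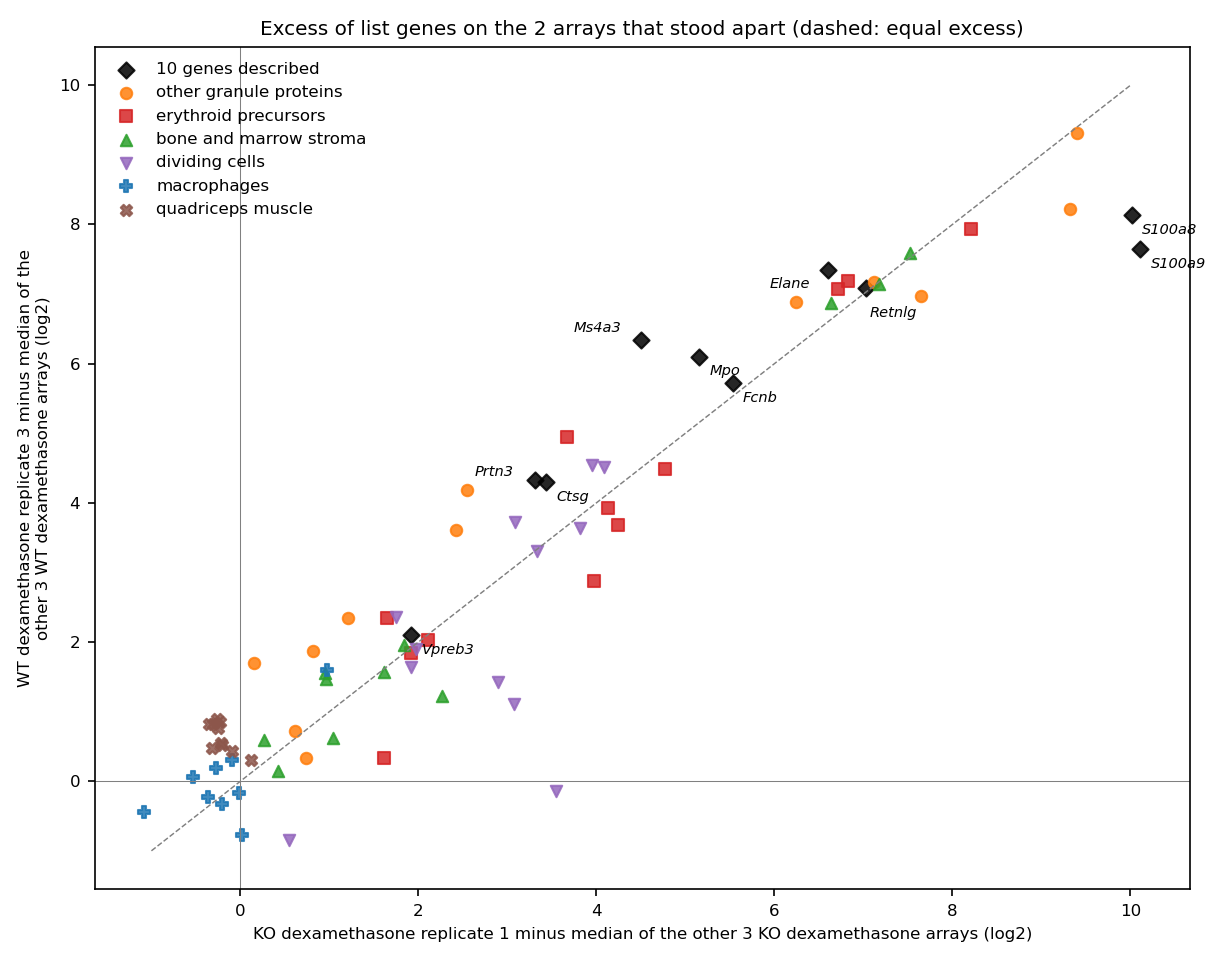
Excess of each gene on KO dexamethasone replicate 1 (x axis) and on WT dexamethasone replicate 3 (y axis) over the median of the other 3 arrays of its group, in log2 units, with the gene list as colour and shape and equal excess as the dashed line. The 10 genes described run from 1.92 and 2.10 (Vpreb3) to 10.1 and 7.65 (S100a9, off the line toward KO), among erythroid and bone genes, and macrophage and muscle genes lie nearer 0; spots not well above background enter at their measured level.

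Among the proteins of the later granules and the secreted proteins of neutrophils, 9 of 12 genes were higher on both arrays than elsewhere. Camp, the cathelicidin precursor, was at 1.51 on KO dexamethasone replicate 1 and 3.12 on WT dexamethasone replicate 3, against -5.19 or lower. Ngp, neutrophilic granule protein, was at 1.54 and 2.76, against -4.81 or lower. Chil3, a chitinase-like lectin, was at 3.89 and 4.96, against -1.19 or lower. The exceptions were Lcn2, Hp and Lyz2. Of the other 14 arrays WT dexamethasone replicate 1 had the highest median deviation of this list, 1.56, against 3.37 and 3.94 on the 2 arrays. It was also the highest of the 14 for the 10 genes described (0.73), neutrophil surface receptors (0.70) and red cells (0.81). For erythroid precursors, dividing cells and bone genes another array was the highest of the 14. Of 14 surface receptors of mature neutrophils 10 were higher on both, with Csf3r, the receptor of granulocyte colony-stimulating factor, not well above background on any other array. Without the 2 arrays 10 receptors could be tested. In KO 1 rose with dexamethasone, Il1r2, where 4.34% of all features rose, and in WT 0, where 4.26% did. Il1r2 changed by 1.83 (SE 0.48, limma adjusted p = 0.037) in KO, a call kept in 14 of 26 alternatives, and by 1.06 (SE 0.48, limma adjusted p = 0.220) in WT. With normexp the count of genes higher on both arrays was 1 of 14 for these receptors and 7 of 12 for the granule and secreted proteins.

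Of these 12 genes 10 could be tested without the 2 arrays, and 3, named after their values were seen, rose with dexamethasone in both genotypes, where 4.34% of all features rose in KO and 4.26% in WT. Lcn2, lipocalin 2, an iron-siderophore binding protein, was at 2.65, 1.83, 2.09 and 2.04 on KO dexamethasone arrays, against -4.50, -4.09, -4.60 and -3.82 on KO vehicle arrays. It was at 2.85, 1.88, 2.61 and 1.74 on WT dexamethasone arrays, against -2.93, -4.80, -4.40 and -4.21 on WT vehicle arrays. The dexamethasone and vehicle arrays did not overlap. KO dexamethasone replicate 1 was the highest of its group and WT dexamethasone replicate 3 lay within its group. Their excess over the median of the other arrays of the group was 1.53-fold and 1.66-fold. Without the 2 raised arrays the log2 change of Lcn2 was 6.24 (SE 0.40, limma adjusted p = 1.3e-05) in KO and 6.24 (SE 0.40, limma adjusted p = 1.6e-05) in WT.

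Pglyrp1, a peptidoglycan recognition protein of granules, had both patterns. It was at 0.31, -2.36, -2.11 and -2.09 on KO dexamethasone arrays, against -3.96, -4.08, -3.60 and -4.57 on KO vehicle arrays, and at -1.60, -2.77, 1.47 and -2.14 on WT dexamethasone arrays, against -3.89, -4.16, -4.57 and -4.12 on WT vehicle arrays. All dexamethasone arrays were above all vehicle arrays, and the raised arrays were above the rest of their group. Its log2 change in KO was 2.49 (SE 0.77, limma adjusted p = 0.060) with all arrays and 1.86 (SE 0.28, limma adjusted p = 0.0019) without the 2, and in WT 2.93 (SE 0.77, limma adjusted p = 0.027) and 2.02 (SE 0.28, limma adjusted p = 0.0014). With all arrays the WT call held in 22 of 29 alternatives, with log2 changes of 1.29 to 3.43 and an adjusted p of up to 0.686, and was lost with normexp, with slide as a fixed block, without any 1 of the 4 WT vehicle arrays and without slide 7. The third gene, Hp, the haemoglobin-binding protein haptoglobin, rose by 2.08 (SE 0.41, limma adjusted p = 0.0093) in KO and by 1.94 (SE 0.41, limma adjusted p = 0.014) in WT without the 2 arrays. Without the 2 arrays the call of Pglyrp1 was lost with normexp in both genotypes (1.30 in KO and 0.74 in WT) and in WT with slide as a fixed block (1.55). The call of Hp was lost without slide 7 (2.03 in KO and 1.72 in WT), in KO without KO dexamethasone replicate 3 (1.86) and in WT with slide as a fixed block (1.15).

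Relatives and partners of the 10 genes were listed as well. Of 8 other S100 genes, 3 resistin family genes, 7 ficolins and collectins and 5 receptors of S100A8 and S100A9, among them Tlr4 and Ager, 0 were higher on both arrays than on all others. Of 5 inhibitors of neutrophil serine proteases 1 was, Slpi, the secretory leukocyte protease inhibitor, at -0.73 on KO dexamethasone replicate 1 and 0.78 on WT dexamethasone replicate 3 against -2.66 or lower. Serpina3n, a serpin, rose with dexamethasone without the 2 arrays, by 2.49 (SE 0.33, limma adjusted p = 9.1e-04) in KO and 2.47 (SE 0.33, limma adjusted p = 0.0012) in WT. Serpinb1a, an elastase inhibitor of neutrophils and other cells, fell by 0.77 (SE 0.17, limma adjusted p = 0.016) in KO and fell by 0.87 (SE 0.17, limma adjusted p = 0.0088) in WT without them. Both calls of Serpinb1a were lost when arrays were scaled to the median (-0.77 in KO and -0.63 in WT) or slide was a fixed block (-0.62 and -0.80), and the KO call also without slide 7 (-0.69), KO dexamethasone replicate 2 (-0.67) or replicate 3 (-0.73). With all arrays its log2 changes were -0.47 (SE 0.41, limma adjusted p = 0.619) in KO and -0.39 (SE 0.41, limma adjusted p = 0.596) in WT.

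Of 11 recruitment genes, 6 were not well above background on any of the other 14 arrays, among them the chemokine genes Cxcl2, Cxcl3 and Ccl3 and the cytokine gene Csf3. Cxcl5 alone exceeded all other arrays on both, at -5.004 on KO dexamethasone replicate 1 and -7.40 on WT dexamethasone replicate 3, and it was well above background on 1 array of 16. Fkbp5, a target of the glucocorticoid receptor that checks the treatment, was at 3.06, 2.73, 2.97 and 2.91 on KO dexamethasone arrays, against 0.15, 0.35, -0.05 and 0.27 on KO vehicle arrays. On WT dexamethasone arrays it was at 3.11, 3.13, 3.08 and 2.88, against 0.39, -0.49, 0.27 and 0.10 on WT vehicle arrays. Fkbp5 on the 2 raised arrays thus lay within the range of the other 6 dexamethasone arrays. The 9 glucocorticoid response genes measured, Fkbp5 among them, had a median deviation of 0.41 on KO dexamethasone replicate 1 and 0.44 on WT dexamethasone replicate 3. Single genes of that list varied more. Mt2 was 1.39-fold and 0.52-fold the median of the other dexamethasone arrays of its group on these 2 arrays.

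The 20 features with a symbol whose levels were most like the mean of the 10 genes were ranked by Pearson correlation over the 16 arrays, which is a description that rests on the 2 raised arrays. The correlation ran from 0.95 to 0.98 over the 16 arrays and from 0.22 to 0.78 over the other 14. They were Cd79b, the osteopontin gene Spp1, the granule genes Ngp, Chil3, Camp and Ltf, the eosinophil granule gene Prg2, the platelet genes Gp9, Clec1b, Ppbp and Treml1, the erythroid and megakaryocyte factor Nfe2, the carbonic anhydrase gene Car2, Wfdc21, Stmn1, and the genes of DNA replication and mitosis Wdhd1, Nusap1, Sgo1, Ube2c and Ncapg. Spp1 was 33.1-fold above the other arrays of its group on KO dexamethasone replicate 1 and 18.93-fold on WT dexamethasone replicate 3. Prg2 was at least 103-fold and 55.6-fold above them.

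On the other 14 arrays the levels of several of the 10 genes went with the slide. Mpo lay between -4.38 and -3.68 on the 5 arrays of slides 2, 3 and 7, at -2.71 and -2.68 on slide 8, and between -2.47 and -2.16 on the 7 arrays of slides 4, 5 and 6 that remained, and each of slides 4 to 8 held more than 1 group. Prtn3 went the other way on slide 7. Its 3 arrays there (KO dexamethasone replicate 2, KO vehicle replicate 1 and WT vehicle replicate 3) lay between -3.22 and -2.88, WT dexamethasone replicate 1, alone on slide 2, was at -3.34, and the other 10 lay at -4.45 or lower. Ctsg, Vpreb3 and Fcnb were also higher on the 3 arrays of slide 7 than on those 10. Ms4a3 was not well above background on 2 of the 3 arrays of slide 7, on slide 2 or on slide 3.

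**Figure D5:**
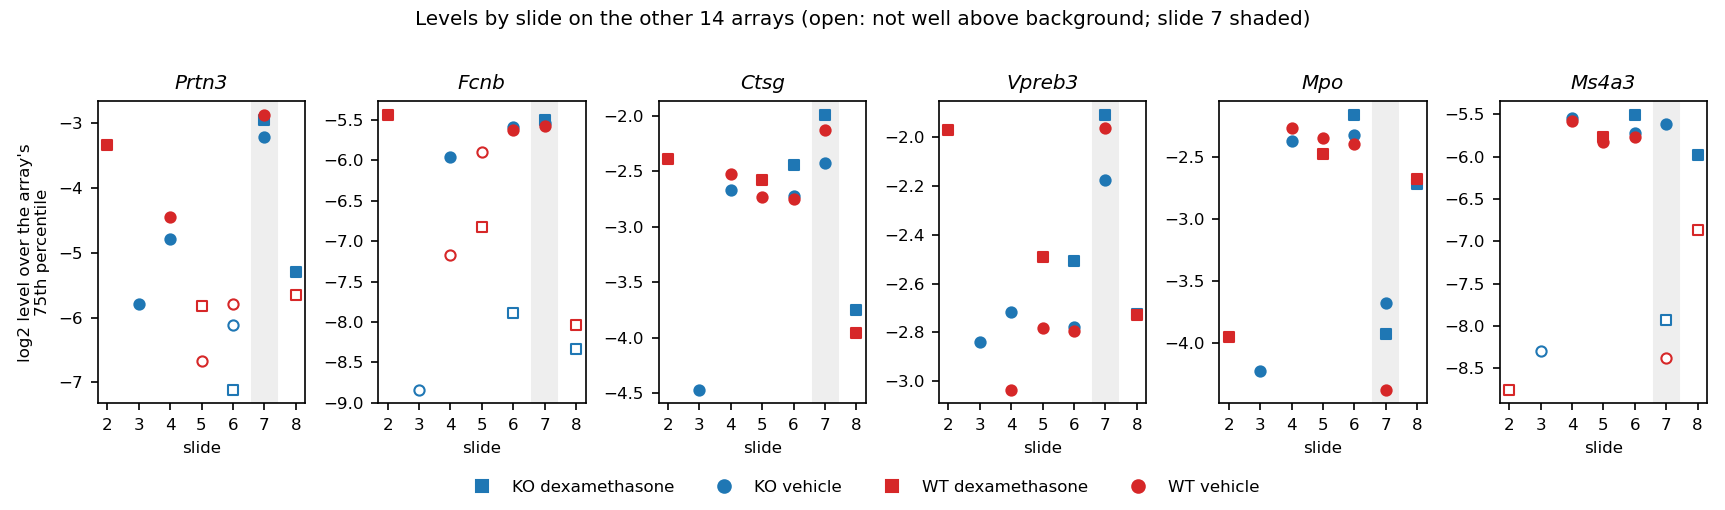
Log2 levels (y axis, over the array's 75th percentile) of 6 genes against the slide number (x axis) on the 14 arrays without the 2 raised ones, with the group as colour and shape, open symbols for spots not well above background and slide 7 shaded. Prtn3 is highest on slides 2 and 7 and Mpo lowest on slides 2, 3 and 7.

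Dexamethasone and vehicle were compared again without slide 7, an alternative added after the data were seen. Limma called 0 of the 10 genes in KO, where 1488 of 25022 features were called, and 0 of 10 in WT, where 2456 were. With slide as a fixed block it called 0 of 10 in each, with 2635 features of 25777 called in KO and 790 in WT, and with slide as a random block 0 of 10 in each, with 5138 and 4150. The raised arrays were kept in these fits, so nothing is read from the counts of the 10 genes.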

How the data were processed

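Per the file headers, the authors' scanner files came from Feature Extraction 10.7.3.1 on 1-colour arrays, and the processed intensity used here is that software's background-subtracted signal. The authors' deposited series table holds log2 values of unstated normalization, used as an alternative. Each array's log2 intensity was taken minus its 75th percentile over probes that are not controls. Outlier spots were left out and spots of a probe averaged. Probes well above background on at least 4 arrays in the fit entered limma 3.58.1 (R 4.3.3), with 4 group means, eBayes and Benjamini-Hochberg adjustment at 0.05. The probe with the highest mean stood for a gene. Accessions were named through the RefSeq table (GRCm38.p6), and no coordinate of the arrays' own build is printed.

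The 10 genes and all lists were chosen with earlier results of these data known. Text names the 10 genes, up to 5 genes per list with the largest SD over the arrays, the 20 most alike and Klf15; other genes were named after their values were seen. 18 listed genes were not analysed here. The number of arrays limits the precision. The test was checked on simulated data.

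Alternatives were median, quantile and normexp scaling (on median spot signals, offset 50), the deposited values, filters on dim probes, slide as a block, the replicate block, the mean of all probes and leaving out each array. Samples with the same replicate number did not deviate together: of 24 such pairs 5 correlated above 0.1, with a range of -0.66 to 0.65, so the numbers were not taken as pairing.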

Additional observations from a re-analysis of the deposited data

Results flagged for a closer look

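In 6 of the 40 combinations of gene and group, 1 array lay far from the other 3, past Dixon's 95% critical value. Chance picks about 1 in 20 groups, a rate that does not apply where a raised array led to the choice of genes, so these are descriptions. Elane on KO dexamethasone replicate 1, one of the arrays behind that choice, was high, at -1.66. The others were low. Mpo was at -4.38 and Ms4a3 at -8.38 on WT vehicle replicate 3. Ctsg was at -4.47, Ms4a3 at -8.30 and Fcnb at -8.84 on KO vehicle replicate 2, the only array of its slide. Both Ms4a3 spots and the Fcnb spot were not well above background, so that their levels are uncertain. The part of the slide in these values was not tested.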

How the results depend on the processing

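Limma called 0 of those of the 10 genes that were tested in every comparison under all alternatives run. Where the raised arrays were kept, the counts under dexamethasone use the values by which the genes were picked, so nothing is read from them. The median excess of the 10 genes was 6.22 on WT dexamethasone replicate 3, but 3.07 with normexp and 4.00 in the deposited values, and 5.34 on KO dexamethasone replicate 1, but 1.97 and 3.27. These medians include spots not well above background. All 10 genes stayed above the other 14 arrays on both under each scaling except normexp, where 8 did. Counts of list genes above the other 14 arrays on both also fell with normexp. Erythroid precursors kept 6 of 12 genes, red cells 5 of 6, bone 5 of 11 and dividing cells 5 of 12. Granulocyte precursors kept 1 of 12, surface receptors 1 of 14 and B-cell precursors 1 of 14. Megakaryocytes kept 2 of 9 and mature B and plasma cells 0 of 9. Protease inhibitors rose to 2 of 5. The cause was not tested.

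Counts of called features moved more. Dexamethasone in KO called 2583 (1457 scaled to the median, 412 with normexp, 5138 with slide as a random block, 1488 without slide 7, 1850 to 2717 leaving out an array). Dexamethasone in WT called 2790 (184 with normexp, 790 with slide as a fixed block, 1691 to 2766 leaving out an array, lowest without WT vehicle replicate 2). Their average called 4434 (938 with normexp). KO against WT under vehicle called 67 (38 to the median, 17 normexp, 22 fixed slide, 447 random slide, 43 without slide 7). KO against WT under dexamethasone called 510 (222, 49, 46 and 1008 under the same settings except slide 7, 319 with the replicate block, 255 without both raised arrays, 312 to 543 leaving out an array, lowest without KO dexamethasone replicate 3). The interaction called 0 (1 with the deposited values, 385 with a random slide, 0 to 1 leaving out an array).

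Without the 2 raised arrays, KO called 2164 (1047 to the median, 527 normexp, 1316 fixed slide, 4453 random slide, 1104 replicate block, 911 without slide 7, 1152 to 2342 leaving out an array, lowest without KO dexamethasone replicate 3). WT called 2324 (1444 to the median, 475 normexp, 224 fixed slide, 3843 random slide, 1150 replicate block, 1228 to 2314 leaving out an array, lowest without WT vehicle replicate 2). The average called 4071 (1339 normexp, 1905 fixed slide). The replicate block changed no call of the 10 genes. Spots not well above background limit Elane, Retnlg and Fcnb most.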

Other observations

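Over the 14 arrays without the 2 raised ones, the 45 pairs among the 10 genes had a median Pearson correlation of 0.09, from -0.72 to 0.88, as a description of arrays that share slides. The pairs above 0.7 were S100a8 with S100a9 at 0.88, Mpo with Ms4a3 at 0.87, Ctsg with Fcnb at 0.79 and Prtn3 with Vpreb3 at 0.73. No pair above 0.7 joined a calprotectin gene to a primary granule enzyme. Spots not well above background enter these values. Of the 14 arrays Elane was well above background on 2, Retnlg on 6, Fcnb on 7, Prtn3 on 8 and S100a8 and Ms4a3 on 9. The part of the slide in these correlations was not tested.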
